A study of Homo sapiens with 16 samples.

Results

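Lysosomes are acidic vesicles in which cells break down protein, lipid and glycan. The 9 genes described here encode parts of that compartment and were chosen by symbol, as 9 of the 60669 genes listed in both deposited tables. They are the proteases CTSB, CTSD, CTSL and CTSZ (cathepsins B, D, L and Z), the membrane proteins LAMP1, LAMP2 and CD63, and the lipid-handling proteins PSAP and NPC2. All 9 passed the filter on low values. RNA came from HMC3, a human cell line labelled microglial. It was labelled either wild type or knockout of METTL3, the catalytic subunit of the enzyme that writes N6-methyladenosine (m6A) on RNA. There were 5 wild-type and 5 knockout-labelled libraries made with Smart-seq2, which amplifies poly(A) RNA, and 3 and 3 made after depletion of ribosomal RNA (rRNA), each from 100 ng of RNA. No drug treatment is named for any group. Whether the knockout line is 1 clone, how it was made and whether replicates are separate cultures is not given in the sources used here, so p-values measure only the spread between these libraries, which may be technical.

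Cathepsins are made as inactive precursors, tagged with mannose 6-phosphate in the Golgi and carried to endosomes, where low pH activates them. CTSB, CTSL and CTSZ use a cysteine to cut protein and CTSD uses a pair of aspartates. LAMP1 and LAMP2 are the heavily glycosylated proteins that line the lysosomal membrane. Many lysosomal genes carry E-boxes near their start, which the transcription factor TFEB and its relatives bind. In microglia these proteins serve the digestion of material taken up from outside.

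The rRNA-depleted libraries were used as TPM, a share of each library corrected for transcript length. Reads recovered from the TPM values numbered 407871, 266130 and 487243 in wild-type libraries 1 to 3. They numbered 1038562, 1267177 and 512597 in knockout-labelled libraries 1 to 3. Every wild-type library was thus shallower than every knockout-labelled one, and the part of depth in the results below was not tested. Knockout-labelled libraries 1 and 2 differed by no more than sampling noise (chi-square per degree of freedom 1.02 over 10120 genes, chi-square test over genes p = 0.065, against 1.16 to 1.53 for the other pairs of like label). They were averaged and counted as 1 sample, so the fit held 3 samples of the wild type and 2 of the knockout label. METTL3 mRNA was not lower under the knockout label. Its TPM values were 31.2, 31.6 and 25.4 in the wild type (libraries 1 to 3, the order used throughout) and 39.2, 39.96 and 42.7 under the knockout label, and limma gave a change of 0.48 on the log2 scale (SE 0.19) with an adjusted p of 0.106. The poly(A) comparison of the authors' deposited table gave METTL3 0.09 (SE 0.11, adjusted p = 0.654). The label is therefore not checked by mRNA, and every direction below is for knockout-labelled against wild-type libraries. Of 15 microglia and macrophage markers, 11 (among them AIF1, ITGAM, PTPRC, P2RY12 and SPI1) were listed at 0 in all 6 libraries, and their summed level was 4.34 to 6.47 TPM in the wild type and 3.42 to 8.97 TPM under the knockout label. The 12 fibroblast and mural cell markers summed to between 10990 and 13380 TPM in the wild type and to between 1649 and 1824 TPM under the knockout label, with 4 called lower and 1 higher. Most of this sum was COL1A1, at 9612 to 11990 TPM against 749 to 865 TPM, while TAGLN was at 307 to 388 TPM against 373 to 404 TPM and THY1 at 121 to 131 TPM against 248 to 270 TPM. The part of this difference in the results below was not tested.

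The stretch before the start of a gene is shown for 3 of the genes because it holds the E-box letters CACGTG, the core of the element that TFEB binds. RefSeq windows of 250 bases before an annotated start (GRCh38.p14) were found for 6 of the 9 genes (CTSD, CTSL, CTSZ, LAMP1, CD63 and NPC2), 14 windows in all. Capitals mark each CACGTG. The motif reads the same on both strands.
LAMP1, chr13:113296989-113297238, plus strand: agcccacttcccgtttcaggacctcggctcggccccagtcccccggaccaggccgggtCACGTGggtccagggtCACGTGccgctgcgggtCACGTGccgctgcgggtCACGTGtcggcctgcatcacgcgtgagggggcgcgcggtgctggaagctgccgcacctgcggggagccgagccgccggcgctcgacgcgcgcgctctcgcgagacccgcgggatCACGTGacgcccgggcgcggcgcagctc
CTSD, chr11:1763928-1764177, minus strand: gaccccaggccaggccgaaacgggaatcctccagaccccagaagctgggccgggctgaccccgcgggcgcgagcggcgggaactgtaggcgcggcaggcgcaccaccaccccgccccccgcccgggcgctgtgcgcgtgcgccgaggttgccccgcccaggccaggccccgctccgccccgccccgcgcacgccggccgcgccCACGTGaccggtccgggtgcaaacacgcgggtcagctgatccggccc
CD63, chr12:55729010-55729259, minus strand: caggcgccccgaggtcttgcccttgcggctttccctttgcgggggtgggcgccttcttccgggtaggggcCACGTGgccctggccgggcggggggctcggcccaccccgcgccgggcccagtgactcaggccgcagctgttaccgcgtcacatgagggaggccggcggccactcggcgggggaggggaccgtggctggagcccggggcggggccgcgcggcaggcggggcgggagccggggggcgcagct
Of 35116 windows in the RefSeq table, 2228 (6.34%) held CACGTG. The LAMP1 window held 5 copies, beginning 192, 176, 159, 142 and 28 bases before the start, and was the 1 window of the 35116 with 5 or more. CTSD held 1 copy, 47 bases before its start. CD63 has 8 windows, and 1 of them held a copy, 180 bases before that start. The windows of CTSL, CTSZ and NPC2 held no CACGTG, which says only that these letters are not in those windows. The genes with the motif include LAMP1, which rose, and CTSD and CD63, which fell (below).

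In the rRNA-depleted libraries the 9 genes moved in different directions. LAMP1 and LAMP2 rose 2.19-fold and 4.74-fold, CTSD, CTSZ and CD63 fell to 0.522, 0.689 and 0.619 of the wild-type level, and CTSB, CTSL, PSAP and NPC2 did not pass the test. Of the 14789 genes tested with limma, 22.9% (3382) passed an adjusted p of 0.05 as higher and 12.4% (1838) as lower, against 2 and 3 of these 9. Median ratio scaling, which divides each library by its median ratio to a reference over genes, split the calls into 2364 higher and 2499 lower, and called 2 of the 9 higher and 4 lower, CTSB being added. Wild-type and knockout-labelled samples were fully separated in level for 8 of the 9 genes, PSAP being the exception, and for 62.7% of all genes tested. With a knockout-labelled group of 2 samples, each of these 5 calls was lost when library 3 was left out (limma adjusted p between 0.0625 and 0.183) or when the average of libraries 1 and 2 was left out (0.0724 to 0.132), fits in which the lone knockout-labelled sample is assumed to vary like the wild type.

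**Figure D1:**
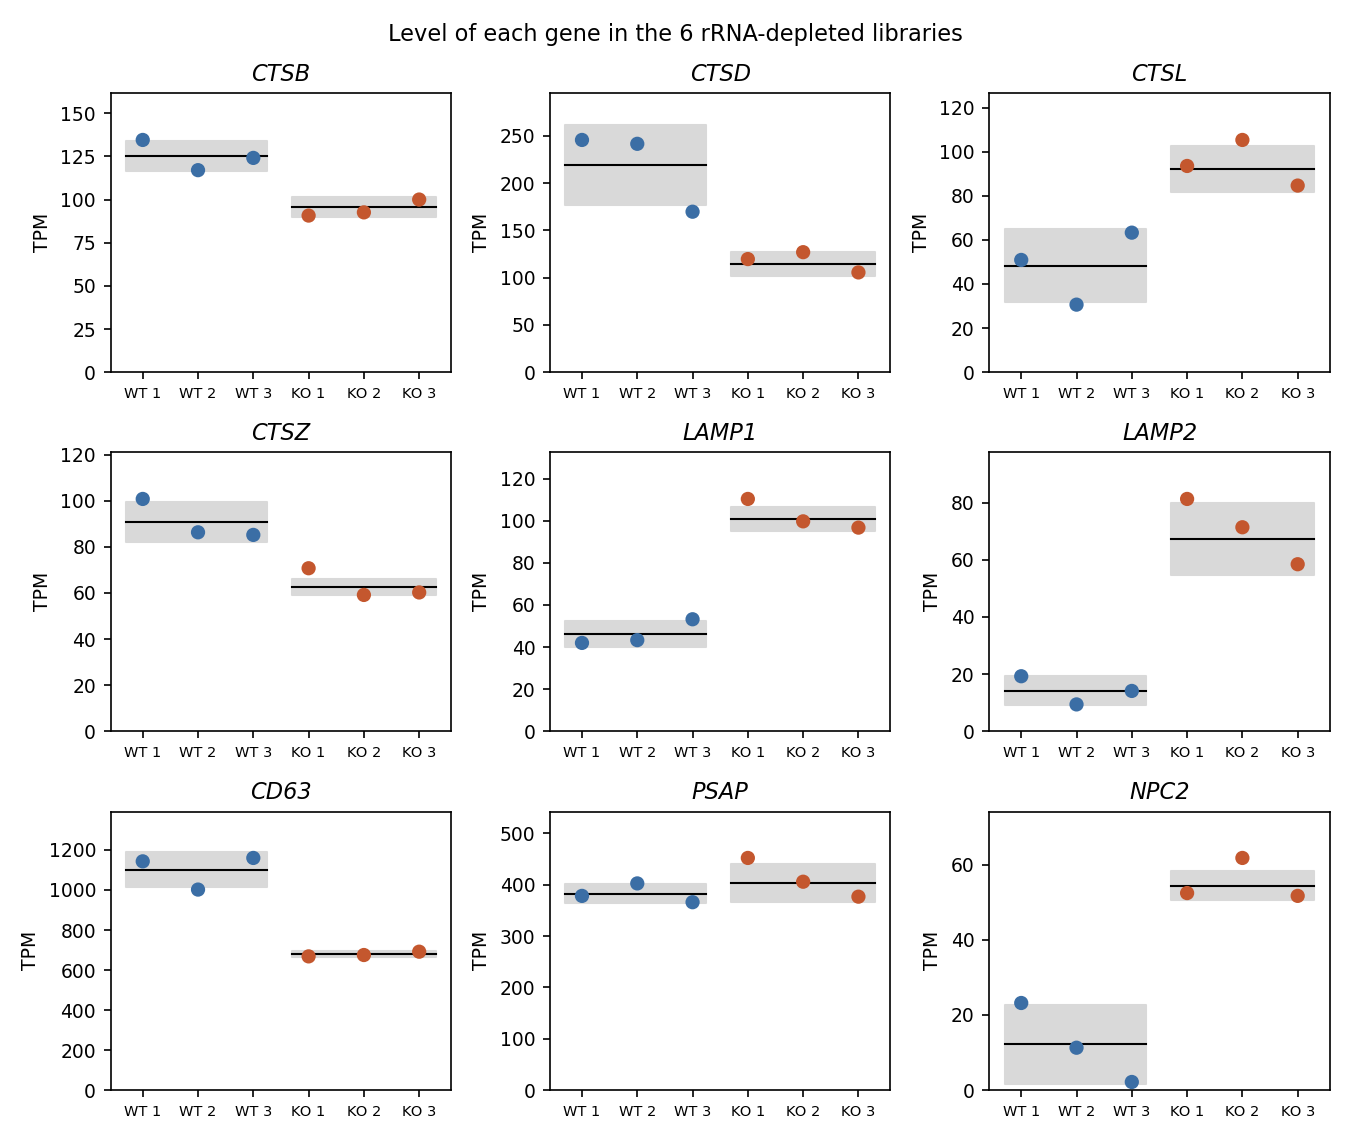
TPM of each of the 9 genes in wild-type (WT, blue) and knockout-labelled (KO, orange) rRNA-depleted libraries, each point a library, with each vertical axis starting at 0. Lines are group means and grey bands the SD over samples, KO 1 and KO 2 being averaged first; PSAP is the panel in which the groups overlap, and CD63 falls from a mean of 1102 to 682 TPM.

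Cathepsin D, the aspartic protease of the lysosome, was the most abundant of the 4 cathepsins in both groups of rRNA-depleted libraries. CTSD (ENSG00000117984; chromosome 11, 1752752 to 1764573, minus strand, GRCh38, GENCODE 29) measured 245.6, 241.5 and 169.7 TPM in the wild type and 119.6, 126.9 and 105.5 TPM under the knockout label. Wild-type library 3 was lower than the other two, and all 3 lay above every knockout-labelled library. Mean levels were 219 ± 42.7 TPM (SD, n = 3) for wild-type samples and 114 ± 12.6 TPM (SD, n = 2) under the knockout label, and on the log2 scale CTSD changed by -0.91 (SE 0.20), with a limma adjusted p of 0.0218. Without wild-type library 1 or 2 the limma adjusted p was 0.0577 or 0.0514, and with the trend over GC content removed from each library the change was -0.13 (limma adjusted p = 0.715).

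Cathepsin Z, a carboxypeptidase of the cysteine class, was also lower. CTSZ (ENSG00000101160; chromosome 20, 58995185 to 59007247, minus strand) measured 100.8, 86.3 and 85.2 TPM in the wild type, from 29, 17 and 29 reads, and 70.7, 59.1 and 60.2 TPM under the knockout label, from 43, 44 and 19 reads. All wild-type libraries lay above all knockout-labelled ones. On the log2 scale CTSZ changed by -0.53 (SE 0.14, limma adjusted p = 0.0356). The call was lost without any 1 of wild-type libraries 1, 2 and 3 (limma adjusted p = 0.0835, 0.0545 and 0.0587) or without knockout-labelled library 2 (0.0655), and with the GC trend removed the change was 0.02 (limma adjusted p = 0.95).

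Cathepsin B, which cuts both within proteins and from their ends, was lower in each knockout-labelled library but did not pass. CTSB (ENSG00000164733, on chromosome 8) measured 134.5, 117 and 124.1 TPM in the wild type and 90.7, 92.6 and 99.98 TPM under the knockout label, from 84 to 251 reads a library. The groups did not overlap. CTSB changed by -0.38 on the log2 scale (SE 0.12, unadjusted 95% interval -0.68 to -0.08), with a limma adjusted p of 0.0598. Median ratio scaling gave -0.73 (limma adjusted p = 0.0103), and removal of the GC trend gave 0.02.

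Cathepsin L, a strong endopeptidase, was higher in each knockout-labelled library but did not pass, unlike CTSD and CTSZ in sign. CTSL (ENSG00000135047; chromosome 9, 87725519 to 87731393, plus strand) measured 50.9, 30.6 and 63.3 TPM in the wild type, from 17, 7 and 25 reads, and 93.5, 105.3 and 84.6 TPM under the knockout label, from 66, 91 and 31 reads. Every knockout-labelled library lay above every wild-type library, with wild-type library 2 the lowest. The log2 change was 0.97 (SE 0.32, unadjusted 95% interval 0.15 to 1.79), and the limma adjusted p of 0.0702 missed the threshold. It was 0.0476 without wild-type library 3 and 0.0369 with the GC trend removed. With median ratio scaling it was 0.177 and with TPM rescaled over protein-coding genes 0.148, and CTSL stayed without a call in 15 of 20 alternatives.

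Among the membrane proteins, LAMP1 and LAMP2 rose and CD63 fell. LAMP1 (ENSG00000185896; chromosome 13, 113297241 to 113323672, plus strand), whose start region is printed above, measured 41.96, 43.3 and 53.2 TPM in the wild type and 110.4, 99.7 and 96.8 TPM under the knockout label, from 24 to 51 and from 86 to 209 reads. No wild-type library came near the lowest knockout-labelled one. LAMP1 changed by 1.12 on the log2 scale (SE 0.16, limma adjusted p = 0.00661), and it was 1.37 with the GC trend removed (limma adjusted p = 0.00543).

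LAMP2, which also serves chaperone-mediated autophagy, had the largest change among the 5 genes that passed. LAMP2 (ENSG00000005893; chromosome X, 120427827 to 120469365, minus strand) measured 19.2, 9.36 and 14.1 TPM in the wild type, from 15, 5 and 13 reads, and 81.3, 71.4 and 58.4 TPM under the knockout label, from 134, 144 and 50 reads. Even the lowest knockout-labelled library held more than all 3 wild-type libraries summed. Mean levels were 14.2 ± 4.93 TPM (SD, n = 3) for wild-type samples and 67.4 ± 12.7 TPM (SD, n = 2) under the knockout label. LAMP2 changed by 2.21 on the log2 scale (SE 0.34), with a limma adjusted p of 0.00812. With the GC trend removed it was 1.49 (limma adjusted p = 0.0224).

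CD63, a tetraspanin of late endosomes, lysosomes and exosomes, was the most abundant of the 9 genes in all 6 libraries. CD63 (ENSG00000135404; chromosome 12, 55725323 to 55729707, minus strand) measured 1143, 1002 and 1160 TPM in the wild type and 668, 675 and 692 TPM under the knockout label, from 255 to 649 reads. The knockout-labelled libraries lay close to each other and below all wild-type libraries. CD63 changed by -0.69 on the log2 scale (SE 0.11, limma adjusted p = 0.0083). With the GC trend removed it was -0.18 (limma adjusted p = 0.318), and eBayes without a trend ended the calls of CD63, CTSD and CTSZ (limma adjusted p = 0.0565, 0.0596 and 0.114). In bulk RNA, fewer cells that express a gene and less RNA per cell cannot be told apart.

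The lipid-handling proteins differed from each other. PSAP (ENSG00000197746; chromosome 10, 71816298 to 71851375, minus strand), the precursor of the saposins that help enzymes reach sphingolipids, measured 378.3, 402.6 and 366 TPM in the wild type and 452.2, 405.9 and 376.8 TPM under the knockout label, from 126 to 480 reads. These groups overlapped. The log2 change was 0.07 (SE 0.11, unadjusted 95% interval -0.19 to 0.34, limma adjusted p = 0.62), and median ratio scaling turned it to -0.28 (limma adjusted p = 0.107), so no direction is given. It was 0.59 with the GC trend removed (limma adjusted p = 0.0257), in a fit where the median of all genes was 0.49. Relative to that median PSAP was at 0.10.

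NPC2 (ENSG00000119655; chromosome 14, 74476192 to 74494177, minus strand), which hands cholesterol to NPC1 for export from the lysosome, measured 23.2, 11.3 and 2.18 TPM in the wild type, from 9, 3 and 1 reads, and 52.4, 61.8 and 51.7 TPM under the knockout label, from 43, 62 and 22 reads. The wild-type libraries spread widely and all lay below the knockout-labelled ones. The log2 change of 2.50 (SE 0.86, unadjusted 95% interval 0.31 to 4.68) had a limma adjusted p of 0.0775. Leaving out wild-type library 1 or 3 brought the limma adjusted p to 0.0403 or 0.0418. It was 0.117 with median ratio scaling and 0.11 with the GC trend removed, and NPC2 stayed without a call in 14 of 20 alternatives.

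Because TPM is a share of each library, the change of a typical gene matters. The median log2 change of all genes tested was 0.41, and median ratio scaling brought it to 0.11. Relative to the median of all genes, the log2 changes were 2.08 for NPC2, 1.80 for LAMP2, 0.71 for LAMP1 and 0.56 for CTSL, and they were -0.34 for PSAP, -0.79 for CTSB, -0.94 for CTSZ, -1.10 for CD63 and -1.33 for CTSD. The median over the 9 genes was 0.07, beside 0.41 for all genes. The sign of the relative change was the same for 8 of the 9 genes under each of the 20 alternatives run, with PSAP the exception.

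Ratios between genes within a library do not depend on any factor for that library. They were chosen after the values were seen and carry no test. CD63 exceeded LAMP1 by 27.2, 23.2 and 21.8 times in the wild-type libraries and by 6.05, 6.77 and 7.15 times in the knockout-labelled libraries. The ratio of CTSL to CTSD was 0.207, 0.127 and 0.373 in the wild type and 0.782, 0.83 and 0.802 under the knockout label. The ratio of LAMP2 to LAMP1 was 0.458, 0.216 and 0.265 against 0.736, 0.716 and 0.604. In these 3 pairs the groups did not overlap. The ratio of CTSZ to CTSB, at 0.686 to 0.75 in the wild type and 0.602 to 0.78 under the knockout label, did overlap. Of all single genes tested, 62.7% separated, and no such share was computed for ratios. The ratios are not corrected for GC content. With the GC trend removed, the log2 change was 1.49 for LAMP2 and 1.37 for LAMP1, against 2.21 and 1.12 before. It was 1.35 for CTSL, -0.13 for CTSD and -0.18 for CD63, against 0.97, -0.91 and -0.69.

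The order of the levels also differed. In the wild type it ran CD63, PSAP, CTSD, CTSB, CTSZ, CTSL, LAMP1, LAMP2 and NPC2, from 1102 to 12.2 TPM on average, and the ranges of CTSL and LAMP1 and of LAMP2 and NPC2 overlapped. Under the knockout label it ran CD63, PSAP, CTSD, LAMP1, CTSB, CTSL, LAMP2, CTSZ and NPC2, from 682 to 54.4 TPM, and the ranges of LAMP1 and CTSB, of CTSB and CTSL, and of LAMP2 and CTSZ overlapped with libraries 1 and 2 averaged. Over the 3 single libraries, CTSD and LAMP1 and CTSZ and NPC2 overlapped too. The 9 genes together took 0.194% to 0.214% of all TPM in the wild type and 0.163% to 0.174% under the knockout label.

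**Figure D2:**
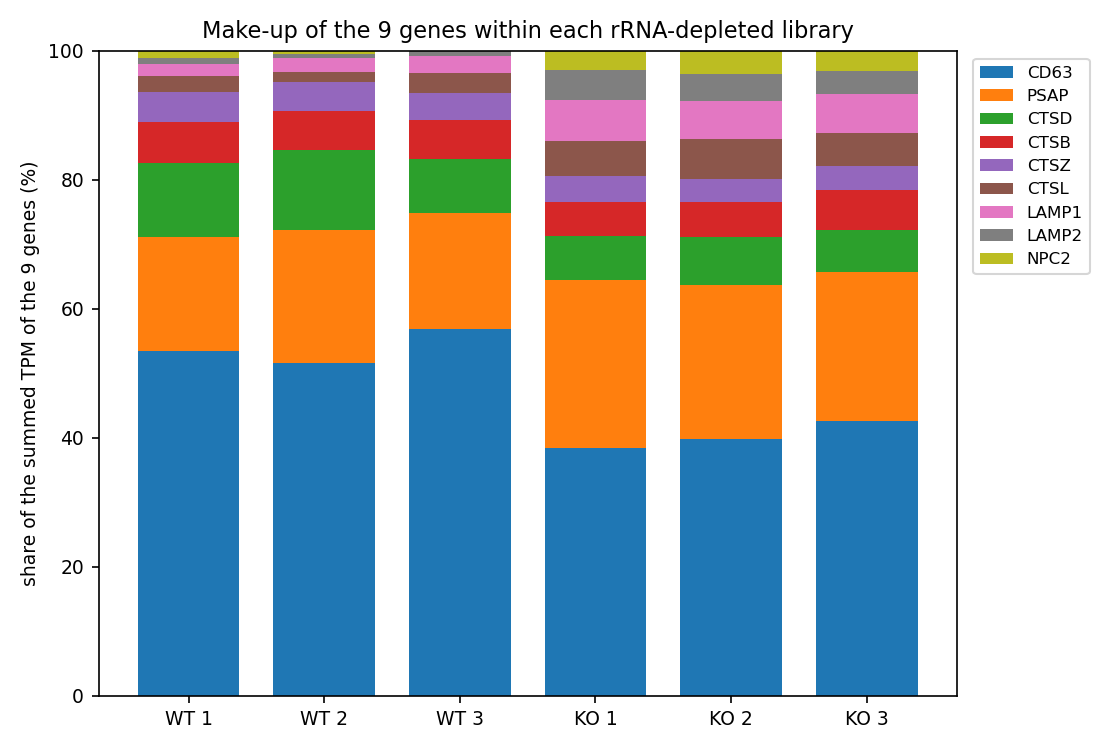
Share of each gene in the summed TPM of the 9 genes, in percent, for each wild-type (WT) and knockout-labelled (KO) rRNA-depleted library. CD63 made up 51.5% to 56.9% of the sum in the wild type and 38.4% to 42.5% under the knockout label, and LAMP2 went from 0.482% to 0.899% up to 3.59% to 4.67%.

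Poly(A) RNA was compared through the authors' deposited table, in which single libraries have no values and the numerator is not named. A positive value was read as higher under the knockout label, because the signs of the library types then matched for 91.5% of 177 genes that passed in both with changes of 1 or more on the log2 scale. By the adjusted p of the authors' deposited table, 2 of the 9 genes were higher and 2 lower, where 9.55% and 10.3% of the 14009 genes with an adjusted p were. CTSL had a log2 fold change of 0.53 (SE 0.11, adjusted p = 5.5e-05) and LAMP2 of 0.39 (SE 0.07, adjusted p = 3.22e-07) in the authors' deposited table. The authors' deposited table gave CTSD -0.54 (SE 0.15, adjusted p = 0.0022) and CD63 -0.40 (SE 0.11, adjusted p = 0.00157). These 4 changes were smaller than a factor of 2.

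LAMP2, CTSD and CD63 passed in both library types, 3 of the 9 genes. Their signs match under the chosen reading of the poly(A) table, as do those of 67.3% of the 1327 genes that passed in both. Because matching signs chose that reading, the match is no separate evidence, and with the other numerator every sign of the authors' deposited table printed here would turn. The sizes differed between library types: LAMP2 was 4.74-fold higher in the rRNA-depleted libraries and 1.31-fold higher in the authors' deposited table. CTSL, which missed the threshold in the rRNA-depleted libraries, was 1.44-fold higher in the authors' deposited table. The difference between library types itself was not tested, since single poly(A) libraries have no values here.

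The other 5 genes did not pass in the authors' deposited table. PSAP had a log2 fold change of 0.07 (SE 0.07, adjusted p = 0.586) and NPC2 of 0.14 (SE 0.16, adjusted p = 0.596) in the authors' deposited table. CTSB had 0.15 (SE 0.06, adjusted p = 0.0749) in the authors' deposited table, opposite in sign to its rRNA-depleted value. LAMP1 had -0.33 (SE 0.49, adjusted p = 0.716) and CTSZ -0.73 (SE 0.77, adjusted p = 0.578) in the authors' deposited table, and their wide errors go with low levels. Per kilobase of exon, the mean normalized counts of the authors' deposited table were 1.15 for LAMP1 and 1.32 for CTSZ, against 39.5 to 471 for the other 7 genes. By this level CTSD, at 39.5, lay below CTSB at 88.7 and CTSL at 70.5, unlike in the rRNA-depleted libraries. The ratio of this level to TPM put LAMP1 at the 4.8 percentile and CTSZ at the 5.34 percentile of 11732 genes. For LAMP1 the 95% normal interval of the authors' deposited table ran from -1.30 to 0.64, below its rRNA-depleted value of 1.12.

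**Figure D3:**
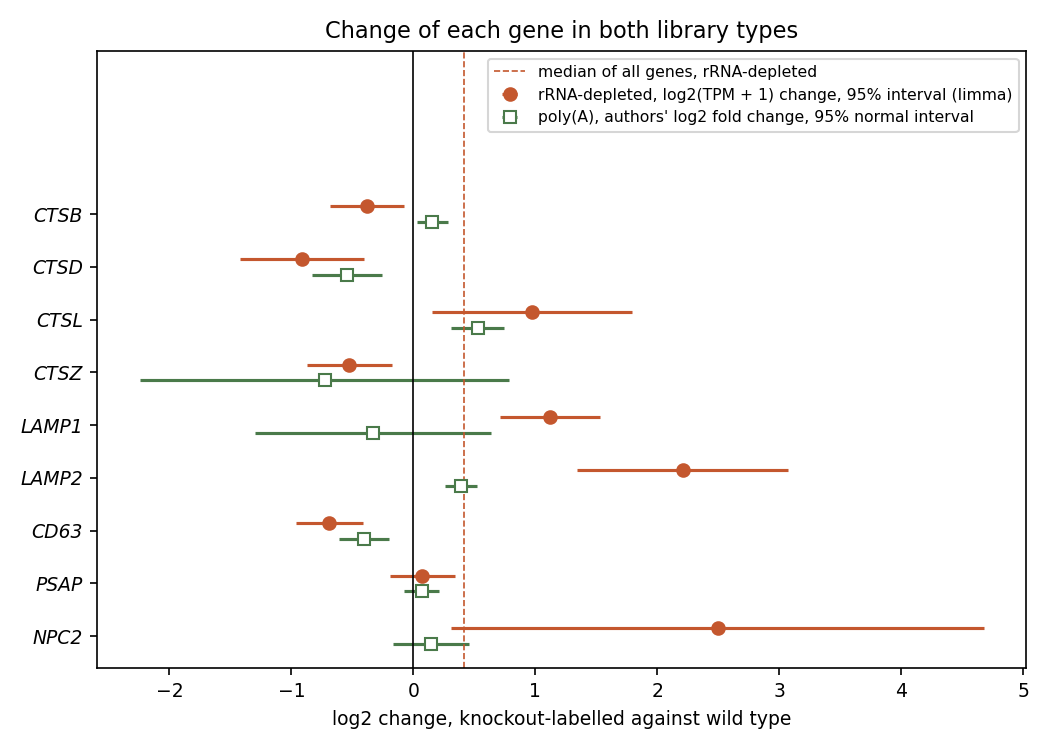
Log2 change of each gene in the rRNA-depleted libraries (circles, 95% interval from limma) and in the authors' deposited poly(A) table (squares, 95% normal interval from the deposited standard error), knockout-labelled against wild type. The dashed line is the median of all genes in the rRNA-depleted libraries, at 0.41; LAMP2 lies right of 0 and CTSD and CD63 left of 0 in both.

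GC content moved with these changes. Across 14669 genes the Spearman correlation of the rRNA-depleted log2 change with the GC content of the longest transcript was -0.37. Median changes ran from 1.24 in the tenth of genes with the lowest GC content to -0.41 in that with the highest. The authors' deposited table gave -0.17 over 13948 genes. The 9 genes run from LAMP2 (37.7% GC) and NPC2 (44.3%) through LAMP1 (51.2%), CTSL (52.5%) and CTSB (52.8%) to CD63 and PSAP (both 54.7%), CTSZ (58.3%) and CTSD (64%). Over these 9 the correlation was -0.9 for the rRNA-depleted change, a description over genes that share the same libraries. After removal of the GC trend, LAMP1 and LAMP2 still passed, CTSL and PSAP also passed, and CTSD, CTSZ and CD63 did not. Relative to the median of all genes in that fit, CTSD was at -0.62, CD63 at -0.66, CTSZ at -0.47 and CTSB at -0.46.

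**Figure D4:**
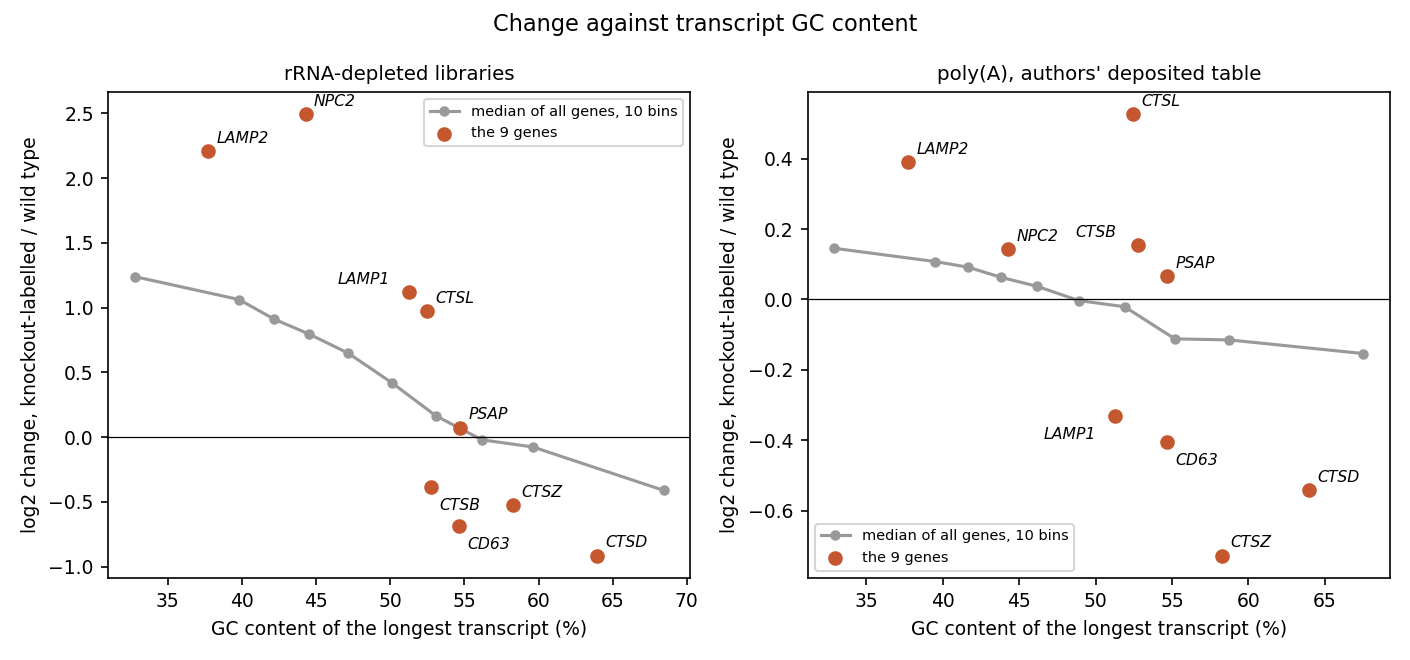
Log2 change (knockout-labelled against wild type) against the GC content of the longest transcript in percent, for the 9 genes (orange, named) and as the median of all genes in 10 bins of GC content (grey), with rRNA-depleted libraries on the left and the authors' deposited poly(A) table on the right. The grey line falls from 1.24 to -0.41 on the left and from 0.15 to -0.15 on the right; LAMP2 and CTSL lie above it and CTSD and CD63 below it in both panels.

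The rest of the lysosomal system was read from 9 lists of 120 genes. In the rRNA-depleted libraries 104 were tested, of which 22 (21.2%) were higher and 12 (11.5%) lower, shares close to the 22.9% and 12.4% of all genes. By the authors' deposited table, 10 of 103 were higher (9.71%) and 17 lower (16.5%), beside 9.55% and 10.3% of the 14009 genes with an adjusted p. The median log2 change of the tested genes was 0.44 in the rRNA-depleted libraries, beside 0.41 for all genes. Without knockout-labelled library 3, 6 of the 104 were higher and 3 lower, and of the genes named below TPP1, TMEM192, ATP6V1C1 and ATP6V0E2 kept their call under all 20 alternatives.

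Of 10 other lysosomal proteases tested in the rRNA-depleted libraries, 4 were higher and 2 lower. CTSC, the dipeptidase that activates granule proteases, rose from 13.1 to 36.9 TPM on average (log2 change 1.43) and TPP1, a tripeptidase, from 35.5 to 94.2 TPM (1.38), while CTSH, an aminopeptidase, fell from 24.5 to 5.63 TPM (-1.92). CTSC passed with the opposite sign in the authors' deposited table (-0.45, adjusted p = 3.15e-08). CTSA, which protects other lysosomal enzymes, was at -0.47 and SCPEP1 at -0.36 in the authors' deposited table. Their rRNA-depleted log2 changes, 0.47 and 1.29, were opposite in sign and did not pass (limma adjusted p = 0.0992 and 0.0843). Of 3 cathepsin inhibitors tested in the rRNA-depleted libraries, 0 passed in the main limma fit, also 0 at an unadjusted p of 0.05. In other fits 1 passed as higher: pseudocount 5, 6 separate libraries, the replicate block, without wild-type library 2, and voom on recovered reads. CSTB measured 14.2, 0 and 24 TPM in the wild type and 91.5, 80.3 and 82.99 TPM under the knockout label (log2 change 3.56, limma adjusted p = 0.109), opposite in sign to its poly(A) value. The authors' deposited table had the cystatin CSTB at -0.97, SERPINB6 at -0.77 and the secreted cystatin CST3 at 0.50, all past the threshold.

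Among 31 hydrolases of glycans, sulfates, lipids and phosphates, 3 were higher and 3 lower. ARSA, which removes sulfate from sulfatide with the help of saposin B, fell from 45.6 to 14.6 TPM (log2 change -1.54; -0.62 and not past the threshold with the GC trend removed), and the beta-galactosidase GLB1 rose by 1.33 on the log2 scale with a limma adjusted p of 0.0498 that was lost under 13 of 20 alternatives, among them leaving out any 1 wild-type library (0.0606, 0.0912 and 0.0991) or knockout-labelled library 2 (0.0534). HGSNAT (1.03), ARSB (0.85) and PLBD2 (0.80) were higher in the authors' deposited table. None of them passed in the rRNA-depleted libraries, where HGSNAT was at 1.18, PLBD2 at 0.15 and ARSB, with the opposite sign, at -0.62. Of the 5 lipid transfer and activator proteins, NPC1, the membrane partner of NPC2, rose from 5.66 to 22.2 TPM (log2 change 1.83, limma adjusted p = 0.0185). Its wild-type reads were 11, 5 and 7. GRN, progranulin, fell from 393 to 277 TPM (-0.50, limma adjusted p = 0.0255). Relative to the median of all genes, GRN was at -0.92 in the main fit and at -0.33 with the GC trend removed. GRN had the opposite sign, 0.16, with the GC trend removed, and its limma adjusted p was 0.06 without wild-type library 1, 0.0516 without library 3 and 0.0951 without knockout-labelled library 3.

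Of 16 other membrane proteins of lysosomes and endosomes, 2 were higher and 2 lower. LAPTM4A rose from 61.6 to 339 TPM (log2 change 2.48) and the sialomucin CD164 from 30.4 to 61.8 TPM (limma adjusted p = 0.0145; 0.615 with the GC trend removed), while TMEM192 fell from 25.4 to 8.49 TPM (-1.47). CD164 passed as higher too in the authors' deposited table (0.27, adjusted p = 0.00349). Of 6 other tetraspanins, CD9 rose from 7.48 to 39.6 TPM (5.29-fold, limma adjusted p = 0.00911), unlike CD63, and passed with the opposite sign in the authors' deposited table (-0.83, adjusted p = 1.5e-11). CD151 was at -0.52 in the authors' deposited table.

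In the list of mannose 6-phosphate tagging and sorting, 3 of 12 were higher and 2 lower. The retromer subunits VPS26A and VPS35 rose by 2.59 and 1.77 on the log2 scale, and M6PR, a receptor that carries tagged enzymes, by 1.61. Wild-type reads were 8, 3 and 5 for VPS26A, 22, 9 and 27 for VPS35, and 19, 13 and 11 for M6PR. VPS26A passed as higher in the authors' deposited table as well (0.36, adjusted p = 2.85e-06). The same authors' deposited table had the retromer subunit VPS29 at -0.98, the sorting receptor SORT1 at -0.45 and GNPTG, a subunit of the tagging enzyme, at 0.46. In the rRNA-depleted libraries VPS29 (log2 change 0.92), SORT1 (0.15) and GNPTG (-0.83) did not pass, and each had the opposite sign. Of 18 subunits of the V-ATPase, the proton pump that acidifies the lysosome, 7 were higher and 2 lower. ATP6V1F (log2 change 2.02) and ATP6V1C1 (2.01) rose and ATP6V0E2 (-1.90) fell. ATP6V1F had -0.40 (adjusted p = 0.0185) in the authors' deposited table, opposite in sign, and its limma adjusted p was 0.0558 without wild-type library 3 and 0.197 without knockout-labelled library 3. ATP6V0E2 at -0.58 and ATP6V1B2 at 0.23 passed in the authors' deposited table. Of 3 MiT/TFE factors tested, which include TFEB, MITF passed in the rRNA-depleted libraries, from 0.606 to 4.75 TPM (log2 change 1.90, limma adjusted p = 0.034), and was lower in the authors' deposited table (-0.80). MITF measured 0.985, 0 and 0.832 TPM in the wild type and 6.99, 3.05 and 4.49 TPM under the knockout label. It thus passed the filter of 1 TPM only through the knockout-labelled libraries. The MITF call was lost under 12 of 19 alternatives. Among them were leaving out any 1 of the wild-type libraries (limma adjusted p = 0.0544 to 0.0639) or knockout-labelled library 1 (0.0654) or 3. Median ratio scaling (limma adjusted p = 0.0554) and removal of the GC trend (0.0927) lost it too.

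**Figure D5:**
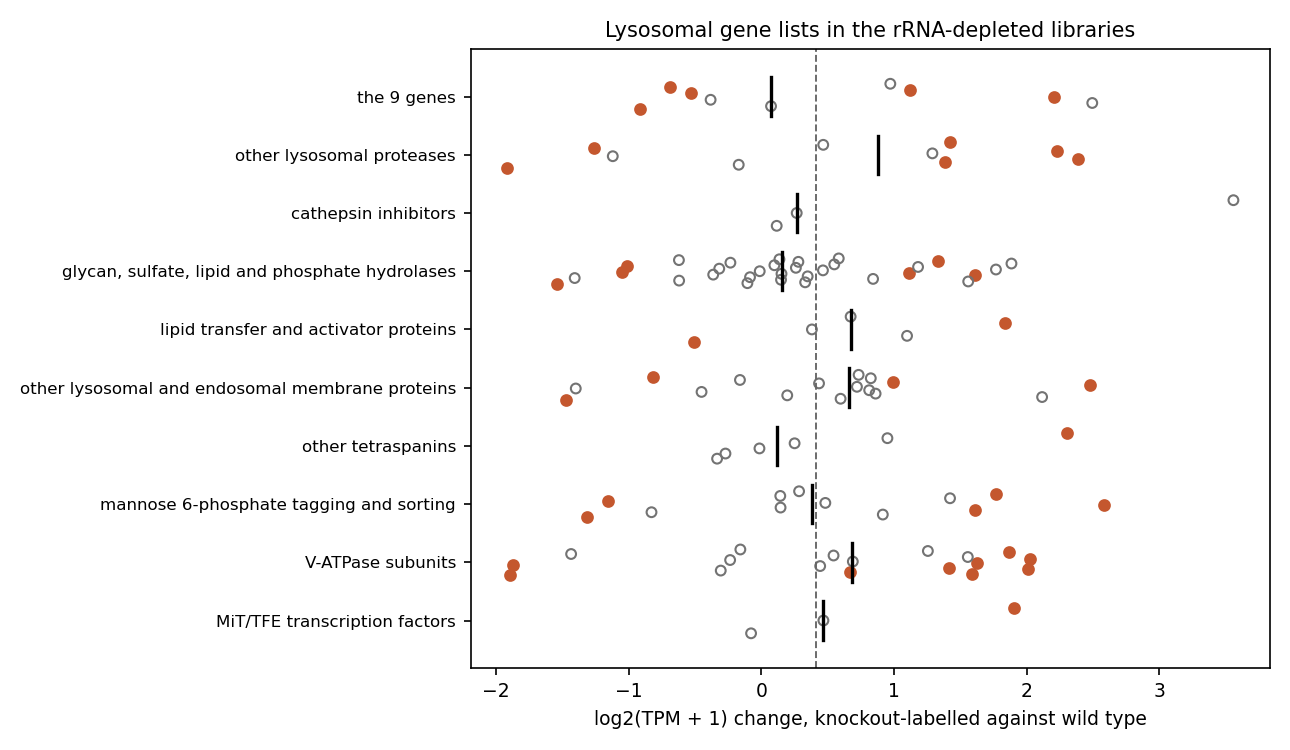
Log2(TPM + 1) change, knockout-labelled against wild type, of the 9 genes and of the genes in 9 lysosomal lists in the rRNA-depleted libraries. Filled points passed a limma adjusted p of 0.05 and open points did not, the black bar is the list's median and the dashed line the median of all genes, at 0.41; each list with more than 3 genes tested has points on both sides of 0.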

How the data were processed

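Libraries were grouped by genotype and type in their titles. The submitters' processing notes name Trimmomatic, STAR, DESeq2 and hg38; the counting tool and annotation are not given in the sources used here. For rRNA-depleted libraries the authors deposited TPM. For poly(A) libraries, per the file headers, the authors deposited 1 comparison with its log2 fold change and standard error, the Wald score, p-value, adjusted p-value and, as a signal averaged over all libraries, the mean normalized count. It is described and not retested, and its intervals are 95% normal intervals. No column was left unused. Reads were recovered with exon lengths from GENCODE 29 (90.9% of values above 0 were whole to within 0.02 reads; not so for CTSD) and cover counting error only.

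limma 3.58.1 (R 4.3.3) was run on log2(TPM + 1), eBayes with trend, keeping genes that reached 1 TPM in 3 or more libraries, with Benjamini-Hochberg adjustment over all of them at 0.05 and a check on simulated data. Fold changes on this scale understate low genes. Means and ratios used Python 3.11.15 and pandas 2.3.3. The alternatives were other pseudocounts, filters, scalings and samples. The members and lists were chosen with earlier results of these data known. Genes named beside the 9 were METTL3 and, per list and library type, up to 3 called genes with the largest change whose mean reached 5 TPM (or 50 normalized counts), and any called with opposite signs; some genes that this rule or the likeness measure picks are not reported here.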

Additional observations from a re-analysis of the deposited data

How the results depend on the processing

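Of the 9 genes, 2 were called higher and 3 lower, and of the 104 other lysosomal genes 22 higher and 12 lower. The adjusted p threshold of 0.01 gave 1401 higher and 841 lower of all genes and 1 of the 9 lower, and a minimum log2 change of 1 gave 0 of the 9 lower. Leaving out 1 library in turn gave 1004 to 3356 higher and 659 to 1829 lower of all genes, 0 to 4 and 0 to 3 of the 9, 6 to 25 and 3 to 13 of the other lysosomal genes, and 0.38 to 0.53 for METTL3. Leaving out the average of knockout-labelled libraries 1 and 2, chosen after seeing the data like the next 3 alternatives, gave 940 higher and 799 lower, 0 and 0 of the 9, and 6 and 4. Removing the GC trend gave 4 higher and 0 lower of the 9 and 5 other lysosomal genes lower; voom on recovered reads gave 3509 lower of all genes, 4 of the 9 higher, and 34 higher and 23 lower of the others; TPM rescaled over protein-coding genes gave 2462 higher and 2344 lower of all genes. The 6 libraries as separate samples gave 4 of the 9 higher and 39 others higher, and METTL3 passed at 0.46 (limma adjusted p = 0.0486). eBayes without trend gave 0 of the 9 lower. Median ratio scaling gave 2364 higher and 2499 lower of all genes and quantile normalization 2651 and 2442, against 3382 and 1838 with TPM as deposited.

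The replicate block, with 6 separate libraries, gave 4037 higher and 2000 lower of all genes, 4 of the 9 higher and 4 lower, and 34 others higher. Same-numbered libraries did not deviate together (correlation of deviations 0.02, -0.02 and 0.01), and wild-type library 1 correlated best with knockout-labelled library 2 (0.025). All these correlations were near 0, which low read numbers could also give, so the check cannot exclude a pairing. The poly(A) comparison could not be rerun without single libraries. PSAP had the other sign with median ratio scaling (-0.28), 75th percentile scaling (-0.12), rescaling over protein-coding genes (-0.22), voom (-0.14) and without knockout-labelled libraries 1 and 2 (-0.0196). With the GC trend removed CTSB (0.024), CTSZ (0.017) and GRN (0.16) had the other sign. The median of all genes in that fit was 0.49, and relative to it these genes stayed lower, at -0.46, -0.47 and -0.33. For the authors' deposited table, an adjusted p threshold of 0.01 gave 854 higher and 957 lower, and a minimum log2 fold change of 1 gave 374 and 273, with 0 and 0 of the 9. Of the 9 genes, depth limits LAMP2 and NPC2 most, with 1 to 15 reads in each wild-type library. Genes of the other lists in that range include VPS26A, NPC1, GLB1, SCPEP1, VPS29 and HGSNAT. Wild-type reads were 3, 2 and 4 for SCPEP1, 6, 4 and 8 for VPS29, and 5, 3 and 10 for HGSNAT.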

Other observations

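TCIRG1, an isoform of the a subunit of the V-ATPase and chosen after its values were seen, was lower in both library types. TPM values of TCIRG1 were 40.4, 26 and 27.3 in the wild type and 11.5, 8.12 and 5.89 under the knockout label, with no overlap. The log2 change was -1.87 (limma adjusted p = 0.0132), and -0.99 with the GC trend removed (limma adjusted p = 0.137), and -1.55 without knockout-labelled library 3 (limma adjusted p = 0.102). The authors' deposited table gave TCIRG1 a log2 fold change of -1.94 (SE 0.54, adjusted p = 0.00329), from a mean normalized count of only 5.27.

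Of the genes with at least 5 TPM on average, SEL1L, UQCRFS1, ELOVL1 and MAP4K3 had profiles over the 6 libraries among the closest to the mean of LAMP1 and LAMP2, by summed absolute difference of centred log2(TPM + 1), 0.195 to 0.373. OAZ1, PTTG1, PEX16, CYTH2 and TRMT12 were closest to the mean of CTSD, CTSZ and CD63, at 0.255 to 0.349. The 6 libraries fall into 2 groups, and the likeness is a description.

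GALC, the lysosomal galactosylceramidase and also chosen after its values were seen, had 0 TPM listed for each of the 6 rRNA-depleted libraries and had a log2 fold change of -4.62 (adjusted p = 0.00275) in the authors' deposited table, from a mean normalized count of 1.21.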
